A study of Mus musculus with 6 samples.

Results

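The genes that copy DNA in S phase were examined as a group of 46 in erythroid progenitors from mouse fetal livers labelled as knockout for Eklf, whose gene symbol is Klf1. The group was chosen by name, but with earlier results of these data known. It holds the MCM helicase, origin licensing factors, Cdc45 and GINS, primase and polymerases, and the sliding clamp and its loader. It also holds single-strand binding and lagging strand proteins, enzymes of nucleotide supply, and factors that restore chromatin behind the fork. Of these 46 genes, 45 had a probe set annotated to them alone (98 probe sets of 45101 on the array), and Chaf1a was not analysed here. All 45 passed the filter on dim signals, and they are 45 of the 12799 genes tested.

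Replication starts at origins, where the origin recognition complex, Cdc6 and Cdt1 load the MCM helicase in G1. Geminin, the product of Gmnn, binds Cdt1 and stops origins from being loaded again, and Cdc45 and GINS then turn the loaded helicase into an active one. Many of these genes are transcribed in a burst before and during S phase under E2F transcription factors. Erythroid progenitors of the fetal liver divide rapidly before they leave the cell cycle and lose the nucleus, and Klf1 is a zinc finger activator of the red cell lineage that binds CACCC-type sequences.

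RNA came from 3 livers labelled EKLF -/- (genotype EKLF knock out) and 3 labelled wild-type, all from fetuses of 13.5 days and given the strain C57BL/6. The labels trace the knockout line to a targeting construct from a strain 129 library, and such an allele is carried by every cell of the fetus, not by the red cell lineage alone. Early erythroid progenitors were sorted with 7AAD, a stain for dead cells, and antibodies to CD71 and Ter119. Each sample of 10 μg total RNA was hybridised to its own single-colour Affymetrix array, so 3 arrays per group set the precision throughout.

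Several measures outside the replication genes separated the groups, but the signal of Klf1 itself did not. The single Klf1 probe set gave 3505, 1391 and 2545 signal units in the knockout-labelled arrays, against 2508, 2706 and 4030 in the wild-type-labelled arrays (limma log2 difference -0.38 ± 0.32, SE, adjusted p = 0.347; exact two-sided permutation p = 0.5, where 0.1 is the smallest possible). Whether that probe set lies in the deleted part is not known here, so groups are called by their labels. The 3 control probe sets for 18S ribosomal RNA read 1431 to 60652 in the knockout-labelled arrays and 11 to 187 in the wild-type-labelled arrays. Of 18 hybridisation control probe sets, 15 were higher in every knockout-labelled array than in any wild-type-labelled one, by 1.74- to 4.63-fold over all 18. Median signals were 204, 218 and 214 in the knockout-labelled arrays, against 128, 140 and 97.7 in the wild-type-labelled arrays, although each array's trimmed mean had been set to 500. All 9 tested erythroid markers were higher in the knockout-labelled arrays, as were 12 of 12 hepatocyte markers (summed signals of 114588 to 185793 in the knockout-labelled against 8244 to 8911 in the wild-type-labelled arrays). The erythroid sums were 81470 to 105385 against 23192 to 25891. Also higher were 7 of 8 megakaryocyte (31069 to 40512 against 7082 to 8120), 5 of 6 macrophage (5432 to 7654 against 1969 to 2842) and 4 of 7 endothelial markers (3939 to 5004 against 1589 to 1927). Lower were 8 of 9 lymphoid markers (939 to 1395 against 23312 to 34563), 6 of 10 stem and progenitor markers (8363 to 9230.4 against 24696 to 25226; 2 others were higher) and 5 of 8 granulocyte and monocyte markers (86128 to 176336 against 144158 to 168232). Transcripts of other lineages thus differed with the label. In this design the mix of cells, the RNA composition, the preparation or hybridisation of the samples and the genotype cannot be told apart. Their part in the results on replication genes was not tested.

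The sequences just upstream of 5 of these genes are shown because they carry matches to the E2F motif, and because their transcripts went in different directions below. They are RefSeq promoters on GRCm38.p6, read along the strand of the gene up to the base before the annotated start, with motif matches in capitals. Mcm6 (chr1:128359706-128359905, minus strand), Cdc6 (chr11:98907951-98908150, plus strand) and Uhrf1 (chr17:56304113-56304312, plus strand, from 1 of its 2 listed starts) were lower in the knockout-labelled arrays. Orc1 (chr4:108579254-108579453, plus strand) was higher, and Mcm5 (chr8:75109309-75109508, plus strand) did not pass the test.
Mcm6: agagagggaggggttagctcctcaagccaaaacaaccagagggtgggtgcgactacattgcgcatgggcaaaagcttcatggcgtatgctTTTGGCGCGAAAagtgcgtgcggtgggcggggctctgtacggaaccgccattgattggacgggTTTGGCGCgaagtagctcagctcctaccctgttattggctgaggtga
Cdc6: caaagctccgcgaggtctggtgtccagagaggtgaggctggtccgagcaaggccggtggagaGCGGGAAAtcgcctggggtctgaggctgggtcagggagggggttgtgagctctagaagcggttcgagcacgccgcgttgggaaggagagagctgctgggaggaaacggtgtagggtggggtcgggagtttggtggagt
Uhrf1: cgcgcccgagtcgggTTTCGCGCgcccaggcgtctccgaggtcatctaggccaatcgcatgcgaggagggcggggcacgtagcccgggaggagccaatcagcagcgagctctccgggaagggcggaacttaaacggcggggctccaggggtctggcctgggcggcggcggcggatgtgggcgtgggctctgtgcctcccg
Orc1: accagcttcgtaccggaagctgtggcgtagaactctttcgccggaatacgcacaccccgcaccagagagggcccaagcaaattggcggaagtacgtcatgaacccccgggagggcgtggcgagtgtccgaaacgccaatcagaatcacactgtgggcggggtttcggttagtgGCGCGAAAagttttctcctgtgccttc
Mcm5: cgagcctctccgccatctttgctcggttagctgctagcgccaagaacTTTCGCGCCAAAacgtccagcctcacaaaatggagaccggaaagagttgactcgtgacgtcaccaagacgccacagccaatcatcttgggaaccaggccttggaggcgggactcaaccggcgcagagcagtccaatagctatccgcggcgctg

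The E2F motif was searched as TTTGGCGC, TTTCCCGC, TTTCGCGC and TTTGCCGC on both strands in the 250 bases upstream of each listed start, and matches that overlap each other, as in Mcm6 and Mcm5, were all counted. Mcm6 held 3 matches, Mcm5 held 2, and Cdc6, Uhrf1 and Orc1 held 1 each. A match was present for 10 of the 38 members with a listed promoter (26.3%), against 2.16% of 27025 genes. It was found in 4 of 20 members that were lower, 1 of 2 that were higher and 5 of 15 that did not pass. CCNCNCCC, a CACCC-type sequence of the kind that Klf1 is known to bind, was present in 24 of 38 members (63.2%), against 48.5% of all genes. By call it was in 15 of 20 lower members, 1 of 2 higher and 8 of 15 that did not pass. CCAAT, the box bound by NF-Y, was present in 25 of 38 members (65.8%), against 37.5% of all genes. Its split was 12 of 20 lower, 2 of 2 higher and 10 of 15 that did not pass. None of these splits was tested. A match here describes letters and is not a site shown to be bound.

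At its brightest probe set, replication gene signal was lower in the knockout-labelled arrays for 22 of 45 members and higher for 2, while 21 did not pass limma at an adjusted p under 0.05. The same call was made lower for 20.8% and higher for 27.9% of all 12799 genes. The median log2 difference, knockout minus wild type, was -0.46 over the 45 members and 0.14 over all genes tested. By sign alone 38 members lay below 0 and 7 above it. For 30 members every knockout-labelled value lay below every wild-type-labelled value, which held for 25.2% of all genes, and for 3 members every value lay above (34.1% of all genes). In sorted bulk RNA, fewer cells in S phase and less of each transcript per cell cannot be told apart.

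**Figure D1:**
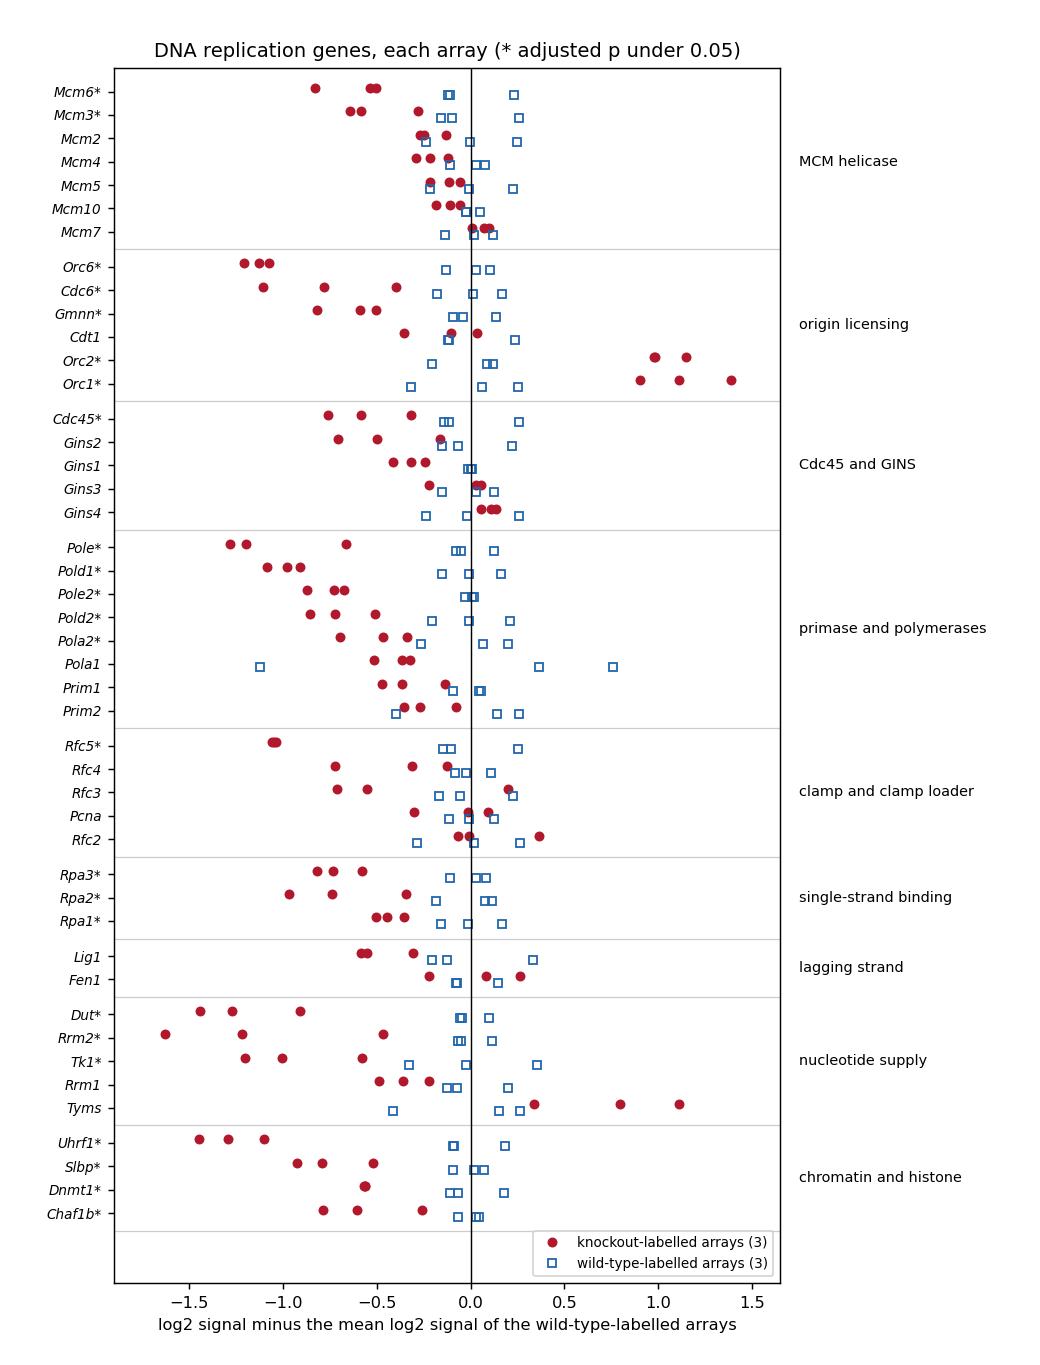
Log2 signal of each of the 45 replication genes in each array, relative to the mean of the 3 wild-type-labelled arrays, at the brightest probe set and grouped by role; filled circles are knockout-labelled and open squares wild-type-labelled arrays, and an asterisk marks an adjusted p under 0.05. The 22 lower genes sit left of 0 in all 3 knockout-labelled arrays, Orc1 and Orc2 sit right of 0, and most MCM subunits lie close to 0.

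Of the 22 lower members, 6 were lower by 2-fold or more: Uhrf1, Dut, Orc6, Rrm2, Pole and Rfc5. Within the knockout-labelled group, array 1 gave the highest of the 3 values for 33 of 45 members. The members' median deviation from the wild-type mean was -0.28 in array 1, against -0.55 in array 2 and -0.51 in array 3. Array 1 also had the lowest 18S signals of its group and the smallest excess of hybridisation controls (median log2 deviation 0.40, against 1.48 and 1.79), and the part of either in this spread was not tested. Among the wild-type-labelled arrays, array 3 gave the highest value for 31 of 45 members.

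Brightness moved with direction across the whole array. With all genes split into 4 equal bins by mean signal, the median difference was 0.94 in the dimmest bin and -0.25 in the brightest, and 34 of the 45 replication genes lay in the brightest bin. There 17 of 34 members were lower, 0 were higher and 17 did not pass, against 35.3% lower and 15.1% higher among all 3200 genes of that bin. Their median was -0.47. In the next bin 5 of 8 members were lower and Orc2 was higher, against 27.9% lower and 16.8% higher of all genes there. The remaining 3 members, Orc1, Gins3 and Tyms, were dimmer, and of these Orc1 was higher, in a bin where 14.2% of all genes were lower and 35.1% higher.

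**Figure D2:**
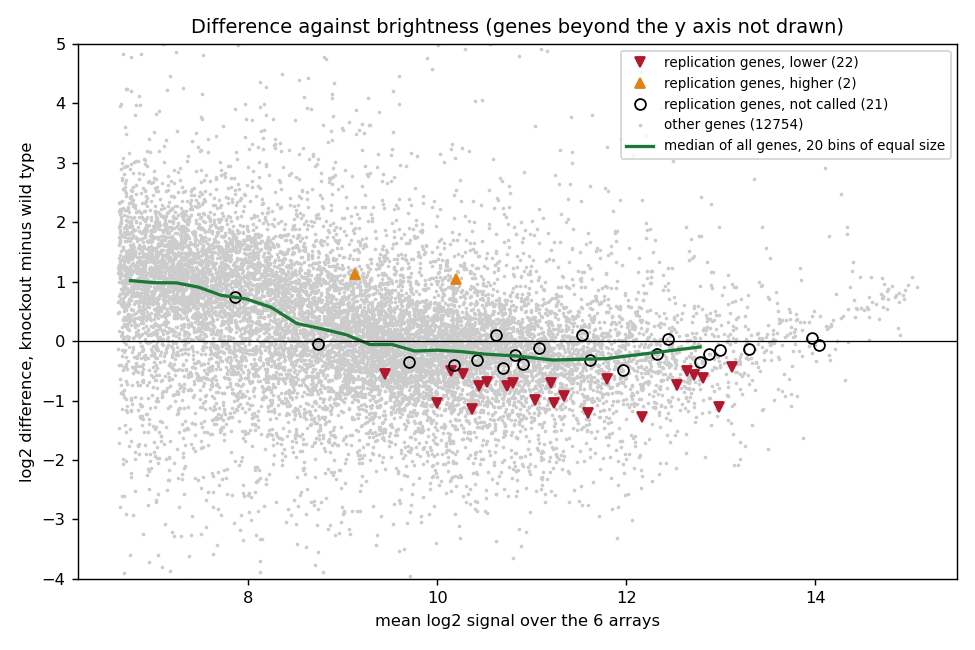
Log2 difference, knockout minus wild type (vertical axis), against mean log2 signal over the 6 arrays (horizontal axis) for 12799 genes, with the replication genes marked by call and a line for the median of all genes in 20 bins of equal size. The line descends from near 1 among dim genes to below 0 among bright ones, and most replication genes lie at the bright end, below the line or on it.

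Read at the brightest probe sets, the MCM helicase moved little as a whole. Mcm2 to Mcm7 form the ring that unwinds DNA, and Mcm10 helps to activate it. Of the 7 genes, 2 were lower, 0 were higher and 5 did not pass, with a median difference of -0.21. Over all genes 20.8% were lower and 27.9% higher, and in the brightest bin 35.3% and 15.1%. Mcm6 had signals of 6141, 4995 and 6274 in the knockout-labelled arrays, against 8189, 8234 and 10433 in the wild-type-labelled arrays. These groups did not overlap (log2 difference -0.62 ± 0.17, SE, adjusted p = 0.0128). Mcm3 read 6243, 5057 and 4865 in the knockout-labelled arrays, against 7091, 6800 and 9068 in the wild-type-labelled arrays, a difference of -0.50 ± 0.17 (adjusted p = 0.0363). Leaving out any array but knockout-labelled array 1 ended the Mcm3 call (adjusted p 0.0520 to 0.119 in 5 of 6 fits), and leaving out knockout-labelled array 2 ended that of Mcm6 (0.0554).

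The other ring subunits and Mcm10 differed by -0.22 to 0.06. Nearest to a call among them was Mcm4, at 5066, 4726 and 4493 in the knockout-labelled arrays, against 5810, 5612 and 5105 in the wild-type-labelled arrays (-0.21 ± 0.14, adjusted p = 0.236). Its values did not overlap either, but the gap was small beside the spread within groups. In a limma fit over 22599 probe sets, the second probe set of Mcm4 was lower (-0.60, adjusted p = 0.0267). That of Mcm2 gave 0.51 without passing. The dimmest probe set of Mcm7 was also lower (-0.67, adjusted p = 0.0198), while its other dimmer ones gave -0.20 and 0.21 without passing. Mcm7 averaged 16308 ± 515 signal units in the knockout-labelled arrays and 15688 ± 1368 in the wild-type-labelled arrays (SD, n = 3 each).

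Origin licensing genes held the widest range of the group, from -1.14 to 1.13. Here 3 were lower, 2 higher and 1 not called, against 20.8% lower and 27.9% higher among all genes. Orc6, the small subunit of the origin recognition complex, read 850.4, 932 and 900.2 in the knockout-labelled arrays, against 2115, 1796 and 2005 in the wild-type-labelled arrays. Its difference of -1.14 ± 0.15 (adjusted p = 0.000419) was far wider than the spread within either group. Orc2, another subunit of the same complex, went the other way, with 1818, 1613 and 1619 in the knockout-labelled arrays, against 889.9, 869 and 710.3 in the wild-type-labelled arrays (1.04 ± 0.17, adjusted p = 0.00109). Orc1, the subunit that binds ATP together with Cdc6 at origins, read 705, 818 and 988 in the knockout-labelled arrays, against 395, 450.2 and 304 in the wild-type-labelled arrays (1.13 ± 0.22, adjusted p = 0.00314). These 3 subunits of a single complex thus did not shift together in these RNA samples. Median centring of the arrays, which lowers all genes, ended the calls of Orc1 (0.32, adjusted p = 0.295) and Orc2 (0.22, 0.458), and the other probe set of Orc1 gave -0.13.

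Cdc6, which loads the helicase with the origin recognition complex, read 1693, 1038 and 1299 in the knockout-labelled arrays, against 2254, 1970 and 2512 in the wild-type-labelled arrays (-0.76 ± 0.20, adjusted p = 0.0133). The call missed the threshold without knockout-labelled array 2 (0.0501). Gmnn, the brake on licensing, read 3110, 2933 and 2506 in the knockout-labelled arrays, against 4287, 4142 and 4844 in the wild-type-labelled arrays (-0.64 ± 0.15, adjusted p = 0.00805). Its target Cdt1 overlapped between groups, at 8753, 7965 and 6693 against 7883, 7891 and 10092 (-0.14 ± 0.17, adjusted p = 0.506).

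Cdc45 and the 4 GINS genes encode the partners that complete the active helicase. Of the 5, only Cdc45 passed, against 20.8% lower among all genes. It read 996, 882 and 1198 in the knockout-labelled arrays, against 1358, 1379 and 1789 in the wild-type-labelled arrays (-0.56 ± 0.19, adjusted p = 0.0352). The call was lost in 5 of 6 fits that left out an array, all but the one without knockout-labelled array 3 (adjusted p 0.0567 to 0.116), and its dimmer probe set gave 0.77. Gins2 read 1729, 1185 and 1374 in the knockout-labelled arrays, against 1853, 1741 and 2258 in the wild-type-labelled arrays (-0.46 ± 0.19, adjusted p = 0.0716), and it passed without knockout-labelled array 1 (0.0286). Gins1, Gins3 and Gins4 differed by -0.32, -0.05 and 0.10.

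Among the polymerases the member genes of the leading and lagging strand enzymes, epsilon and delta, were lower while primase was not called. Of 8 genes 5 were lower, 0 were higher and 3 did not pass, with a median of -0.60. Among all genes 20.8% were lower and 27.9% higher. Pole, the catalytic subunit of polymerase epsilon on the leading strand, read 638, 927 and 603 in the knockout-labelled arrays, against 1391, 1602 and 1419 in the wild-type-labelled arrays (-1.05 ± 0.20, adjusted p = 0.00277). Its partner Pole2 read 1131, 1089 and 987 in the knockout-labelled arrays, against 1815, 1772 and 1831 in the wild-type-labelled arrays (-0.76 ± 0.15, adjusted p = 0.0031). Both groups of Pole2 were tight and stood well apart.

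Pold1, the catalytic subunit of polymerase delta on the lagging strand, read 1386, 1566 and 1490 in the knockout-labelled arrays, against 2642, 2923 and 3287 in the wild-type-labelled arrays (-0.99 ± 0.15, adjusted p = 0.000892). Pold2, its accessory subunit, read 1595, 1254 and 1378 against 2261, 1973 and 2630 in the wild-type-labelled arrays (-0.70 ± 0.17, adjusted p = 0.00949). In each of these 4 epsilon and delta genes every knockout-labelled value lay below every wild-type-labelled value, as in 25.2% of all genes. All 24 called members were without overlap, so this adds nothing to the calls. Of the subunits outside the 46 genes, Pold3 (-0.59) and Pold4 (-0.76) were lower, while Pole3 (-0.27) and Pole4 (0.11) did not pass.

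Polymerase alpha and primase, which lay down the primers, gave a weaker picture. Pola2, the regulatory subunit, read 1064, 829 and 973 in the knockout-labelled arrays, against 1406, 1122 and 1543 in the wild-type-labelled arrays (-0.50 ± 0.19, adjusted p = 0.0493). That call was lost in 4 of 6 fits leaving out an array, those without knockout-labelled array 2 or 3 or wild-type-labelled array 1 or 3 (adjusted p 0.0971 to 0.152). Prim1, the catalytic primase subunit, read 3213, 2737 and 2540 in the knockout-labelled arrays, against 3635, 3658 and 3300 in the wild-type-labelled arrays (-0.32 ± 0.15, adjusted p = 0.102; 0.0451 without knockout-labelled array 1). Prim2 differed by -0.23, and Pola1 by -0.40 ± 0.40, where wild-type-labelled array 3 alone, at 612, lay below all knockout-labelled values.

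The clamp Pcna and its loader did not shift as a unit: 1 of 5 genes was lower, 0 were higher and 4 did not pass. That count of lower genes was near the share of all genes, 20.8%. Rfc5, a small loader subunit, read 1658, 1674 and 1684 in the knockout-labelled arrays, against 3129, 3217 and 4118 in the wild-type-labelled arrays (-1.05 ± 0.16, adjusted p = 0.000784). Rfc4, Rfc3 and Rfc2, which build the same ring, differed by -0.39, -0.36 and 0.10. Rfc4, the nearest of them to a call, read 2010, 1765 and 1331 in the knockout-labelled arrays, against 2161, 2069 and 2369 in the wild-type-labelled arrays (adjusted p = 0.106; 0.0465 without knockout-labelled array 1). Pcna, the ring that tethers polymerases to DNA, overlapped between groups, at 16487 ± 2255 in the knockout-labelled arrays and 17275 ± 1437 in the wild-type-labelled arrays (SD, n = 3 each; difference -0.07, adjusted p = 0.722).

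Replication protein A, the trimer that coats single-stranded DNA, was lower in all 3 subunits at their brightest probe sets (20.8% of all genes). Rpa3 read 2014, 1806 and 1704 in the knockout-labelled arrays, against 3181, 2783 and 3063 in the wild-type-labelled arrays (-0.71 ± 0.15, adjusted p = 0.00423). Rpa2 read 1462, 946 and 1112 against 2005, 1630 and 1956 in the wild-type-labelled arrays (-0.68 ± 0.20, adjusted p = 0.0178). A second probe set of Rpa2, of nearly equal brightness, gave -0.21 and overlapped between groups (adjusted p = 0.463 in a limma fit over 22599 probe sets). Rpa1, the large DNA-binding subunit, read 7633, 8123 and 7315 against 9316, 10288 and 11673 in the wild-type-labelled arrays (-0.43 ± 0.15, adjusted p = 0.0354). Only Rpa3 held whichever array was left out. Rpa2 was lost in 3 of 6 such fits (without knockout-labelled array 2 or 3, or wild-type-labelled array 1; adjusted p 0.0592 to 0.0671), and Rpa1 in 5 of 6, all but the one without knockout-labelled array 1 (0.0533 to 0.102).

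Neither lagging strand gene passed. Lig1, the ligase that seals Okazaki fragments, read 3820, 3216 and 3150 in the knockout-labelled arrays, against 4095, 4327 and 5951 in the wild-type-labelled arrays (-0.48 ± 0.18, adjusted p = 0.0512; 0.0400 without knockout-labelled array 1). Fen1, the flap nuclease, differed by 0.04.

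Nucleotide supply showed the lowest median of the roles with 5 or more genes, -0.93. In it 3 of 5 genes were lower and 0 higher, against 20.8% and 27.9% of all genes. Dut, which destroys dUTP and so keeps uracil out of DNA, read 2506, 1947 and 1728 in the knockout-labelled arrays, against 4528, 4557 and 5035 in the wild-type-labelled arrays (-1.21 ± 0.17, adjusted p = 0.000561). Rrm2, the S phase subunit of ribonucleotide reductase, read 8585, 3838 and 5094 in the knockout-labelled arrays, against 11474, 11342 and 12878 in the wild-type-labelled arrays (-1.11 ± 0.26, adjusted p = 0.00749). Tk1, the thymidine salvage kinase of S phase, read 2386, 1779 and 1551 against 2834, 3508 and 4562 in the wild-type-labelled arrays (-0.93 ± 0.22, adjusted p = 0.0081). For Rrm2 the knockout-labelled values spread more than 2-fold, with array 1 the highest, and its 2 other probe sets gave -0.29 and -0.68 without passing.

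Rrm1, the large subunit of the reductase, did not pass at -0.36 ± 0.15 (adjusted p = 0.0817). Tyms, thymidylate synthase, read 311, 387 and 226 in the knockout-labelled arrays, against 198, 215 and 134 in the wild-type-labelled arrays (0.75 ± 0.31, adjusted p = 0.0716; 0.0430 without knockout-labelled array 3). Of its 4 own probe sets 2 fell below the filter. The probe set annotated to both Tyms and Tyms-ps gave 2863, 2099 and 1914 against 1923, 1941 and 2524 in the wild-type-labelled arrays, a difference of 0.10 that was not tested.

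All 4 analysed genes of chromatin and histone supply were lower, against 20.8% of all genes. Uhrf1, which reads hemimethylated DNA behind the fork, read 3346, 2631 and 2931 in the knockout-labelled arrays, against 6727, 6745 and 8155 in the wild-type-labelled arrays. Its difference of -1.28 ± 0.16 (adjusted p = 0.000254) was the most negative of all 45 members at their brightest probe sets. The second probe set of Uhrf1 gave -0.43 and overlapped between groups (adjusted p = 0.231 in a limma fit over 22599 probe sets). Averaged over passed probe sets Uhrf1 was at -0.86, less negative than Orc6 (-1.14). Dnmt1, the maintenance methyltransferase that Uhrf1 recruits, read 5542, 5542 and 5515 against 7586, 7813 and 9250 in the wild-type-labelled arrays (-0.56 ± 0.14, adjusted p = 0.0104). Slbp, which binds the stem-loop of histone mRNAs, read 5399, 4066 and 4473 against 7262, 7839 and 8137 in the wild-type-labelled arrays (-0.75 ± 0.16, adjusted p = 0.00419).

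Chaf1b, a subunit of the histone chaperone CAF-1, read 707, 490.5 and 557 in the knockout-labelled arrays, against 873, 807 and 864 in the wild-type-labelled arrays (-0.55 ± 0.19, adjusted p = 0.0397). Its call was lost in 5 of 6 fits leaving out an array, all but the one without knockout-labelled array 1 (adjusted p 0.0598 to 0.123). Over all 24 called members, 16 kept their call whichever array was left out and 8 lost it without at least 1 array.

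Ratios between partners on the same array do not change when an array is multiplied by a single factor, and 7 of them were compared. The log2 ratio of Gmnn to Cdt1 changed by -0.49, that of Rrm2 to Rrm1 by -0.75 and that of Uhrf1 to Dnmt1 by -0.72 in the knockout-labelled relative to the wild-type-labelled arrays. For these 3 the groups did not overlap (exact two-sided permutation p = 0.1, the smallest that 3 against 3 arrays allow; 0.233 adjusted over the 7), and no ratio could pass in this design. With the mean of each gene's probe sets in place of the brightest, the Uhrf1 to Dnmt1 ratio turned to 0.21 and the Rrm2 to Rrm1 ratio was -0.38. The other 4 ratios, Pole2 to Pole, Pold2 to Pold1, Pola2 to Pola1 and Prim2 to Prim1, changed by 0.29, 0.29, -0.10 and 0.09 and overlapped between groups (exact p 0.2 to 1).

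Probe sets of the same gene did not always tell the same story. Of the 98 probe sets of members, 86 passed the filter, and of these 31 were lower, 5 higher and 50 not called in a limma fit over all 22599 probe sets (background 17.5% lower and 27.3% higher). Among 30 genes with several passed probe sets, 4 were lower in all of them (Mcm6, Pold1, Rpa1 and Dnmt1), 9 were lower in some, 4 were higher in some and 13 had none called. No gene had a lower and a higher call together, although signs disagreed in 12. Averaging all probe sets of each gene, those under the filter included, turned the differences of Mcm6 (0.13), Cdc45 (0.11), Pola2 (0.44) and Chaf1b (0.20) above 0, each without passing. With the average taken over passed probe sets only, an alternative chosen after seeing the data, Mcm6 was at -0.71 and Chaf1b at -0.55 and both stayed called, while Cdc45 (0.11) and Pola2 (0.057) still lay above 0. That average also ended the calls of Orc1, Rrm2, Rpa2 and Slbp. In the fit over probe sets Pola2 just missed the threshold (adjusted p = 0.0571).

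Some of these differences within a gene were large. Dnmt1 gave -0.56 at its brightest probe set and -1.09 and -1.55 at the other 2. Mcm3 gave -0.40 to -1.46 over its 5 probe sets, of which 4 were called. The dimmest probe set of Mcm5 rose by 1.54 (means of 391 in the knockout-labelled and 131 in the wild-type-labelled arrays), while the bright ones gave -0.13 and 0.12. A dim probe set of Mcm10 rose by 1.15 in the same way. For Orc2, both called probe sets rose by over 1 and the remaining one gave 0.37. Some probe sets carry a suffix that Affymetrix uses for possible matches to other transcripts, so their signals may not be of the named gene alone. Among them are the brightest of Mcm3, Mcm5, Mcm7, Gins2, Fen1 and Rrm2. The dimmer probe sets called lower for Mcm4, Mcm6, Mcm7, Dnmt1 and Pold1 carry such a suffix too, as does that of Mcm3 at -1.46.

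**Figure D3:**
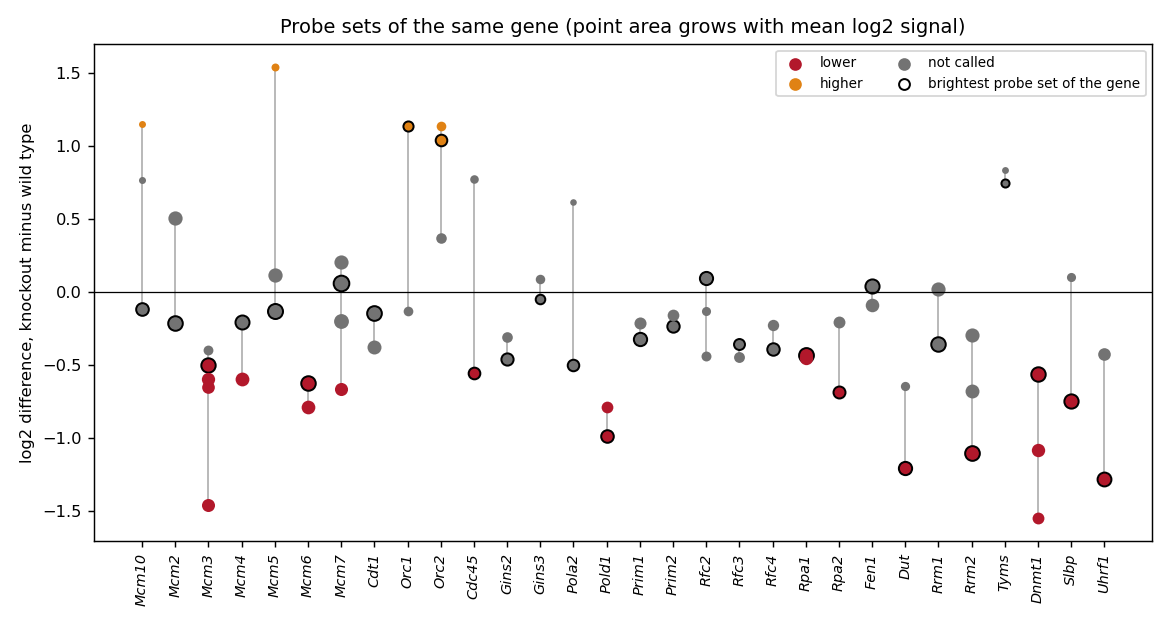
Log2 difference, knockout minus wild type, of each probe set above the filter for the 30 members that have several, with point area growing with mean log2 signal and colour giving the call. Probe sets of Dnmt1, Mcm6, Pold1 and Rpa1 are all lower, while dim probe sets of Mcm5 and Mcm10 lie far above the bright ones of the same gene.

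Of 52 other replication genes that are not among the 46, 18 were lower, 1 was higher and 33 did not pass, with a median of -0.37. This list, too, was chosen with earlier results of these data known. The shares of all genes were 20.8% lower and 27.9% higher, with 35.3% lower in the brightest bin. In nucleotide supply 8 of 10 were lower and 0 higher (median -0.89). Dck, the kinase that salvages deoxycytidine, averaged 1010 ± 176 signal units in the knockout-labelled arrays and 4909 ± 800.2 in the wild-type-labelled arrays (SD, n = 3 each; difference -2.28, adjusted p = 2.97e-05), a wider gap than in any of the 45 members. Samhd1, which breaks down deoxynucleotides, was lower by a log2 difference of -1.72 (adjusted p = 0.00019). At the fork 6 of 19 were lower and 0 higher, led by Dna2, a nuclease and helicase of Okazaki fragments (-1.30), and Rnaseh2b, a subunit of the enzyme that removes ribonucleotides (-0.85). Among 13 further genes of origin licensing and firing only Mcmbp, an MCM-binding protein (-1.13), was lower, and Mtbp, a partner of the firing factor Ticrr, was higher (0.73). Of 10 further chromatin assembly genes 3 were lower, among them the histone chaperones Asf1b (-0.71) and Nasp (-0.49).

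Beside related lists, the median of the replication genes lay between those of the E2F family and the mitosis genes. Of 10 E2F and DP genes, a family that holds both activators and repressors of cell cycle transcription, 6 were lower and 2 higher, with a median of -0.90; Tfdp2 was higher (1.26), and Tfdp1 (-1.10) and E2f7 (-1.25), a repressor, were lower. E2f5, named after its values were seen, had the widest difference of the family, 2.30. Of 31 tested mitosis genes 8 were lower, 2 higher and 21 not called, with a median of -0.22. These are counts on the same 6 arrays, where 20.8% of all genes were lower and 27.9% higher. The difference between the lists was not tested.

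The median of the members stayed below that of all genes in each way of processing tried, while single members changed sign in some and the number of calls varied. Their median minus that of all genes was -0.60 with the values as deposited, and -0.28 (cyclic loess) to -0.84 (no intensity filter) over 16 alternatives. Median centring, the replicate block and the variance trend could not change this gap. The filter settings changed only the all-gene median. This gap is not matched for brightness: in the brightest bin the medians were -0.47 for members and -0.25 for all genes. The count of lower members was smallest without knockout-labelled array 2, at 14, where 17.2% of all genes were lower. It was largest after median centring, at 42, where 47.9% of all genes were lower and the all-gene median was -0.68.

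**Figure D4:**
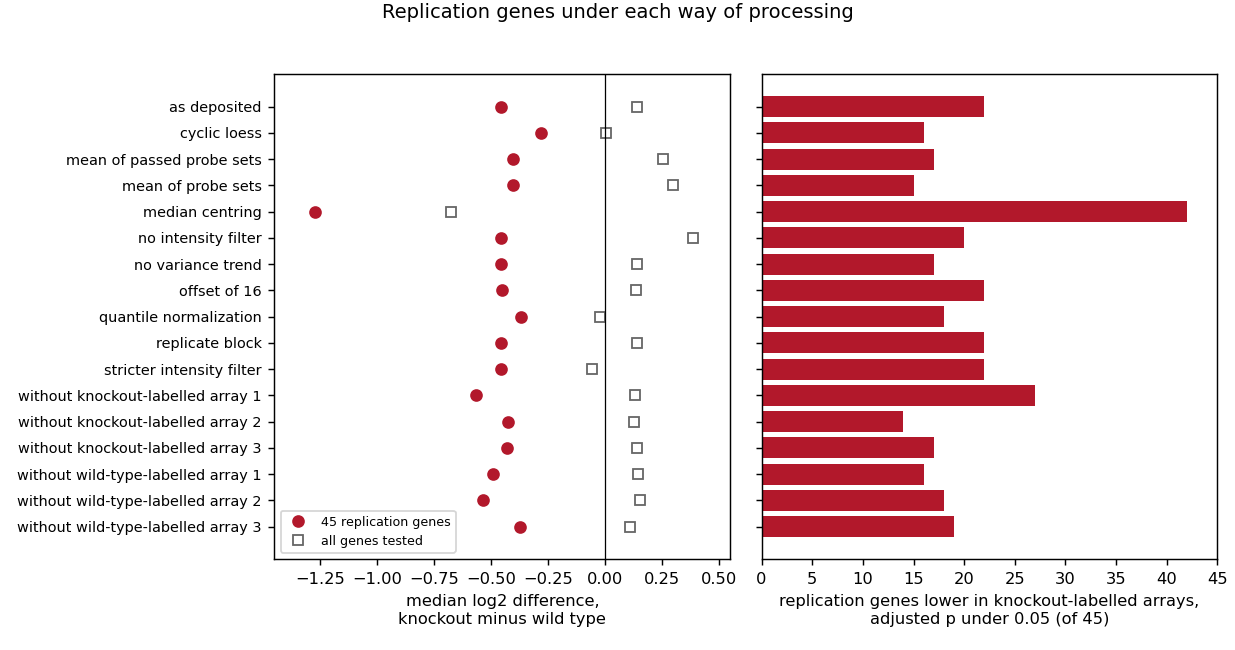
Left, the median log2 difference of the 45 replication genes (filled circles) and of all genes tested (open squares) under each way of processing, knockout minus wild type; right, the number of replication genes called lower. The circles lie left of the squares under every setting, and the count runs from 14 to 42.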

How the data were processed

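RNA of sorted early erythroid progenitors was measured on 6 single-colour Affymetrix arrays, 3 per genotype label. The deposited values are intensity signals per probe set on a linear scale, and the submitters' processing notes name MAS5 and Affymetrix Expression Console as tools. The sources used here give no version of either. The mean of the values is 500 on each array after 2% are cut at each end, so a signal is relative to the others of its array. What this scaling does to the replication genes cannot be read from the deposited values alone. Single-colour signals carry no read depth, and 3 arrays per group limit the precision. One liver gave 1 sample.

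Signals under 1 (303 values) were set to 1 and log2 was taken. Each gene was read from its brightest probe set annotated to it alone, through GEO's platform annotation and RefSeq symbols. A gene was kept if its log2 signal averaged at least 6.62, the percentile 40 over probe sets, which left 12799 of 18193. Differences were tested by limma (version 3.58.1, run under R 4.3.3; eBayes on lmFit, variance trend on), adjusted by Benjamini-Hochberg over all genes tested and called at 0.05. A second fit covered 22599 probe sets. Within-array ratios and Klf1 had exact permutation tests. The fit was tested on simulated data. Ambiguous and unlisted probe sets were not used.

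Named members were all called ones and, in each role, the uncalled one with the smallest p, with others given in ranges or single values. The members and lists were chosen with earlier results of these data known. Same-numbered arrays of the groups deviated together with correlations of 0.0399, 0.0535 and 0.0762, so the numbers were not taken to pair them. Alternatives were quantile, cyclic loess and median scaling, an offset, other filters, averaged probe sets (all, or passed ones only, which was added after seeing the data), no variance trend, a replicate block and each array left out.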

Additional observations from a re-analysis of the deposited data

Results flagged for a closer look

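One control measurement outside the genes compared stood far above its level in the wild-type-labelled arrays. The 3′ control probe set for 18S ribosomal RNA had signals of 30195, 58481 and 60652 in the knockout-labelled arrays (mean 49776), against 187, 141 and 54 in the wild-type-labelled arrays (mean 127). The other 18S probe sets also read higher in each knockout-labelled array. The 3′ to 5′ signal ratio of Actb was 1.07 to 1.22 in the knockout-labelled and 1.13 to 1.22 in the wild-type-labelled arrays. Preparation of the samples and genotype cannot be told apart for this measure, and its part in the replication gene results was not tested.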

How the results depend on the processing

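Of the 24 called members, 11 kept direction and call under all 16 alternatives (Dnmt1, Dut, Gmnn, Orc6, Pold1, Pold2, Pole, Rfc5, Rpa3, Tk1 and Uhrf1). Of these, Gmnn, Orc6, Pold2, Pole, Rfc5, Rpa3 and Tk1 have only 1 probe set. Averaging probe sets could therefore not change their differences. The other 13 called members lost the call at least once, and 4 of them changed sign. Leaving out 1 array gave 14 to 27 lower members, 2 to 3 higher ones, medians of -0.57 to -0.37 and 19 to 36 lower probe sets. Over the same fits 16.3% to 21.4% of all genes were lower, and 2795 to 3472 genes were higher. The counts of 14 and 19 came without knockout-labelled array 2 (17.2% of all genes lower), and 20 lower probe sets without array 3. The Klf1 difference ran from -0.68 to -0.013. Cyclic loess gave a members' median of -0.28 and 20 lower probe sets. Median centring gave 42 lower and 0 higher members (limma), a median of -1.27, 71 lower probe sets, and a Klf1 difference of -1.20 (adjusted p = 0.0128), and turned Tyms to -0.066. Averaging all probe sets, those under the filter included, gave 15 lower and 4 higher members, where 15.4% of all genes were lower and 3722 genes higher. It turned Mcm6 (0.13), Cdc45 (0.11), Pola2 (0.44), Chaf1b (0.20) and Cdt1 (0.59), and the ratios Pola2 to Pola1 (1.33), Prim2 to Prim1 (-0.47) and Uhrf1 to Dnmt1 (0.21). Averaging passed probe sets only, chosen after seeing the data, gave 17 lower and 3 higher members, where 17.4% of all genes were lower and 3901 genes higher. With it Mcm6 (-0.71), Chaf1b (-0.55) and Cdt1 (-0.26) did not turn, while Cdc45 (0.11), Pola2 (0.057), Pola2 to Pola1 (0.46) and Uhrf1 to Dnmt1 (0.21) did. Mcm4 turned to 0.018 (cyclic loess) and 0.013 (quantile), and Cdt1 to 0.073 (cyclic loess). With 1 array left out, Pola2 to Pola1 ran from -0.44 to 0.56 and turned above 0 without knockout-labelled array 2 or wild-type-labelled array 3, where Prim2 to Prim1 turned to -0.060. The causes were not tested. Of all genes 2661 were lower and 3571 higher (57.3% of calls) as deposited, against 44.8% higher (quantile), 46.3% (cyclic loess) and 6133 lower and 1085 higher genes (median centring). With the replicate number as a block, 22 members were lower and 2 higher, and 29 of their probe sets were lower, against 31 without it; each array correlated best with its own number, a hint from the data only. Signals near background limit the dim probe sets, of which 12 of 98 fell below the filter.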
